A study of Mus musculus with 2 samples.

Results

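The genes encoding the proteins of the cytoplasmic ribosome, together with their testis paralogs, were followed through the cells of a wild-type (WT) and an Alkbh5 knockout (KO) mouse testis. Members were all gene rows whose symbol begins with Rps or Rpl and a digit, with Rplp0, Rplp1, Rplp2 and Rpsa added and with pseudogene symbols and the S6 kinase genes removed. This gave 92 of the 36547 genes listed in either library. Of these, 77 were core ribosomal protein genes, 46 of the large and 31 of the small subunit. A further 8 were paralogs of a core gene, namely Rpl10l, Rpl39l, Rps27l, Rpl36al, Rps4l, Rpl22l1, Rpl3l and Rpl7l1. The other members were 6 further gene copies, Rps27rt, Rpl37rt, Rps3a2, Rps3a3, Rpl6l and Rpl32l, and Rps19bp1, which encodes a protein that binds Rps19 and is no part of the ribosome. In all, 88 members had at least 100 unique molecular identifiers (UMIs, each marking 1 captured RNA molecule) in each library. The members with the fewest UMIs over both libraries were Rps3a3 with 36, Rpl3l with 59 and Rps3a2 with 82, and the most abundant was Rpl13 with 307482.

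Both libraries came from the testis of 12-week-old C57BL/6 mice, 1 library from WT animals and 1 from Alkbh5-/- animals, in which the RNA demethylase gene Alkbh5 is inactivated in all cells, and single cells were captured with the GEXSCOPE kit. The WT library held 5756 cells and 80283221 UMIs, and the KO library held 7012 cells and 82056760 UMIs, with median depths of 10905.5 and 9117.5 UMIs per cell. Alkbh5 itself was counted 607 times in WT and 5 times in KO, and 45 cell barcodes occurred in both libraries. The study names both a single mouse and several mice per genotype, and the tables do not tell animals apart, so each genotype is 1 sample here. There was no replicate spread, no p-value was calculated, and each interval given is an exact 95% interval of counting error alone.

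Ribosomes are built from ribosomal RNA and about equal numbers of molecules of each ribosomal protein, and dividing and growing cells make many of them. In male meiosis the X chromosome is silenced as spermatocytes enter the pachytene stage, which would stop the supply of proteins encoded by X-linked ribosomal protein genes. Autosomal copies such as Rpl10l and Rpl39l are known as germ cell paralogs of the X-linked genes Rpl10 and Rpl39. In elongating spermatids transcription stops altogether as histones are replaced by protamines, so the transcripts found there were made earlier and stored.

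Cells were grouped into 16 clusters without using any ribosomal protein gene, and clusters were named from marker genes. The names below stand for cells like those of the named class. Spermatogonia-like cells (154 in WT and 915 in KO) were led by Crabp1 and Sall4, and early spermatocyte-like cells (67 and 267) by Rad51ap2 and Prdm9. Late spermatocyte-like cells (716 and 663) held the clusters with Piwil1 and Pabpc6, round spermatid-like cells (1097 and 1021) the cluster with Cd46 and its neighbour, and elongating spermatid-like cells (2428 and 1321) those with Tnp2, Prm1, Prss58 and Spem1. Leydig-like cells numbered 93 and 1168, Sertoli-like cells 50 and 487, macrophage-like cells 25 and 73, and endothelial-like cells 1 and 24. A cluster led by Ssxb1 (797 and 763 cells) and another led by Cst13 (328 and 310 cells) had markers of neighbouring germ cell classes and stayed unnamed. Markers of one class were also counted in the others, and these levels are given where they bear on a result. Levels are CPM, the UMIs of a gene scaled to a common total of 1e+06 UMIs per class. Each UMI marks 1 captured poly(A) RNA whatever its length, so no division by gene length was made.

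The coding sequences of the paralogs whose X-linked parents matter most below are shown because they decide whether reads of paralog and parent can be told apart. Each was read 5′ to 3′ along the coding strand from the GRCm38 genome with GENCODE vM21 gene models, without the stop codon, and capitals mark the bases at which paralog and parent differ. Rpl10l (chr12:66283379-66284401, minus strand, a gene of 1 exon) and Rpl10 (chrX:74270812-74273135, plus strand) each have 642 coding bases, 98 of which differ, and 211 of 214 codons encode the same amino acid. Their last 120 coding bases, where 16 differ, are:
Rpl10l: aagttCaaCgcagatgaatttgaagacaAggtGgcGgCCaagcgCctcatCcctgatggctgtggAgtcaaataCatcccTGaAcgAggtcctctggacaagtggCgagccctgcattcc
Rpl10: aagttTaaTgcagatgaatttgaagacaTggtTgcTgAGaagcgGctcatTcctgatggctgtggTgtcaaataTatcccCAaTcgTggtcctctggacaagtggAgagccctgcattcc
Rpl39l (chr16:10170226-10174911, plus strand, 3 exons) and Rpl39 (chrX:37082520-37085402, minus strand, 3 exons) encode the smallest pair, with 153 coding bases, 23 of which differ, and 48 of 51 codons for the same amino acid. The whole coding sequences are:
Rpl39l: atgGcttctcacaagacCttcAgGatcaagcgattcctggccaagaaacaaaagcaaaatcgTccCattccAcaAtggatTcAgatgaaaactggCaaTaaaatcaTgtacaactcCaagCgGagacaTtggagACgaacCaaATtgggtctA
Rpl39: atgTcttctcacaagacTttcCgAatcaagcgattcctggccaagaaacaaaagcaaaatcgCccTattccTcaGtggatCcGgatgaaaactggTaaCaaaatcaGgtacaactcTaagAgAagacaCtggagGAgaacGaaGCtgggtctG
Rpl36al (chr12:69182731-69184083, minus strand) and Rpl36a (chrX:134585654-134588062, plus strand) differ at 39 of 318 coding bases, yet all 106 codons encode the same amino acid. Their last 120 coding bases, where 8 differ, are:
Rpl36al: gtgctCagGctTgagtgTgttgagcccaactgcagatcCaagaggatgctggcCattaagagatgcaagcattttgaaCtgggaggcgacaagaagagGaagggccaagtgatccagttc
Rpl36a: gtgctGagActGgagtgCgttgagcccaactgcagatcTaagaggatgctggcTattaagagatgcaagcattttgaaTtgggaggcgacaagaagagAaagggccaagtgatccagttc
Over the whole transcripts, none of the 31-base words of Rpl10l or Rpl36al occurs in its parent, and 0.966% of those of Rpl39l do. Rps4l (chr6:148354656-148355598) is annotated as a transcribed processed pseudogene of Rps4x (chrX:102184941-102189394) and shares 0.876% of its 31-base words with it, so it has no annotated coding sequence to compare.

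Ribosomal protein transcripts took up a smaller part of the RNA with each successive named germ cell class in both libraries. In spermatogonia the members made up 11.3% (11.2 to 11.3) of all UMIs in WT and 12.4% (12.4 to 12.5) in KO. In early spermatocytes the share was 8.78% in WT and 8.99% in KO, and in late spermatocytes 5.23% and 5.68%. Round spermatids had 2.7% in WT and 2.94% in KO, and elongating spermatids 2.21% and 2.37%. The unnamed Ssxb1-led cluster lay between late spermatocytes and round spermatids with 3.87% and 4.06%. The Cst13-led cluster had 1.99% and 2.27%, below both round spermatids and the elongating spermatid class as a whole. Within the late spermatocytes, the cluster with Piwil1 had 6.16% and 6.69% and the cluster with Pabpc6 4.64% and 4.74%. Each step down between the named germ cell classes was larger than the counting intervals. The KO share was the higher one in each of the 16 clusters, although in the elongating spermatid cluster led by Klk1b8 and Prm1, with 2.17% (2.16 to 2.18) in WT and 2.19% (2.17 to 2.21) in KO, the intervals overlapped.

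**Figure D1:**
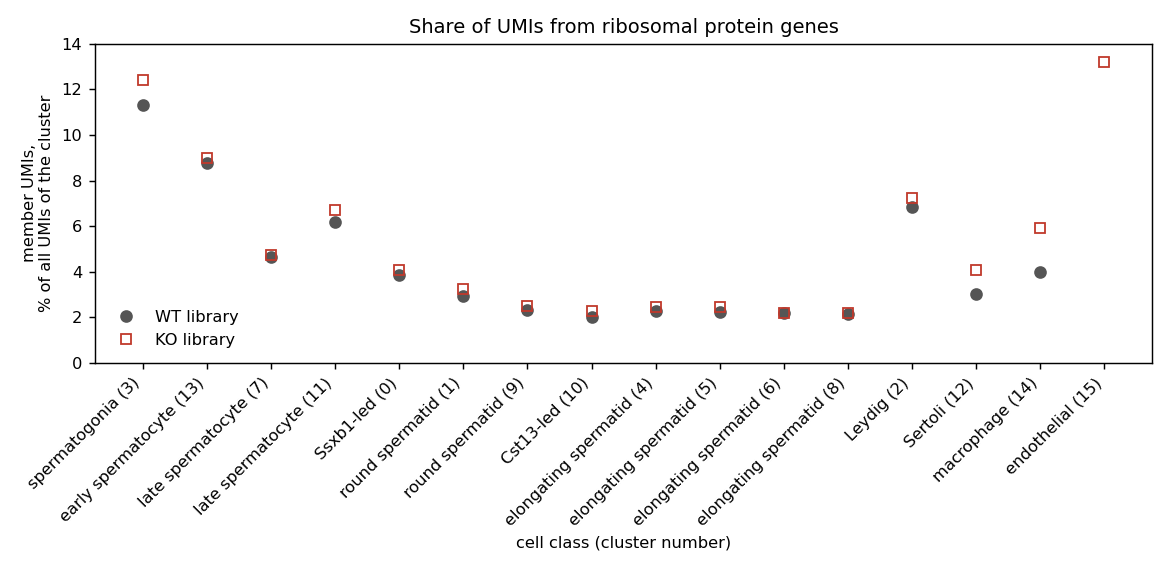
Share of all UMIs (percent, vertical axis) taken by the 92 members in each cluster of the WT (filled circles) and KO (open squares) libraries, with clusters ordered from spermatogonia to elongating spermatids and then somatic cells, and the single WT endothelial-like cell left out. The share falls from 11.3% in WT and 12.4% in KO spermatogonia to between 2.15% and 2.45% in the 4 elongating spermatid clusters.

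The fall in share was not the same as a fall in the number of transcripts. Spermatogonia held 1024 member UMIs per cell in WT and 1001 in KO, and early spermatocytes 705 and 615.1. Late spermatocytes, which are large cells with much RNA, held 982.1 and 937.3. Round spermatids held 491.7 and 483.2 member UMIs per cell, and elongating spermatids 233.3 and 245.2. Per cell the members were thus nearly as many in late spermatocytes as in spermatogonia, and their number was lower in the cells after meiosis.

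Among the somatic cells, Leydig cells, which make testosterone, gave 6.85% of their UMIs to the members in WT and 7.25% in KO. Sertoli cells, which nurse the germ cells, gave 3.03% in WT and 4.07% in KO, and macrophages 3.97% and 5.92%. In the WT Sertoli cells, markers of elongating spermatids reached 152640 CPM, against 35382 CPM in the KO Sertoli cells, and in macrophages they reached 81200 and 58823 CPM. The part of this germ cell RNA in the lower WT shares was not tested.

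All 4 steps between consecutive germ cell classes lowered the median member in both libraries. From spermatogonia to early spermatocytes the median log2 change was -0.31 over 81 tested members in WT and -0.49 over 85 in KO. In this step 8 members in WT and 12 in KO were more than 2-fold lower, beside 9.71% and 24.2% of all tested genes, and 1 member in each library, X-linked Rpl39, was more than 2-fold higher, beside 9.28% and 9.83%. Rpl39 went from 153.2 to 323.5 CPM in WT and from 127.5 to 297.3 CPM in KO. From early to late spermatocytes the median was -0.81 in WT and -0.77 in KO. Here 35 of 83 members in WT and 29 of 85 in KO were more than 2-fold lower, beside 26% and 29.4% of all genes. The same 3 members, Rpl10l, Rpl22l1 and Rpl39l, were more than 2-fold higher in both libraries, beside 37.1% and 37.5% of all genes.

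From late spermatocytes to round spermatids the median change of the members was -0.98 in WT and -0.91 in KO, and 38 members were more than 2-fold lower in each library, beside 39.9% and 38.9% of all genes. In this step only Rpl10 in WT, at a few CPM, was more than 2-fold higher and none was in KO, beside 35.5% and 34.9%. From round to elongating spermatids the members fell less than the other genes. Their median was -0.63 in WT and -0.75 in KO, where all tested genes had medians of -1.76 and -1.51. In this step 33 of 81 members in WT and 31 of 83 in KO were more than 2-fold lower, beside 62.9% and 59.7% of all genes, and Rps20 in WT alone was more than 2-fold higher, beside 8.48% and, in KO, 8.63%.

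Genes that make ribosomes fell in the same order. Up to late spermatocytes they lost a slightly smaller part of their share than the members, and by elongating spermatids a larger one. The listed ribosome biogenesis genes, such as Ncl, Npm1 and Fbl, together made up 1.1% of UMIs in WT spermatogonia and 1.3% in KO, 0.58% and 0.626% in late spermatocytes, 0.271% and 0.289% in round spermatids and 0.0381% and 0.054% in elongating spermatids. The 77 genes of the mitochondrial ribosome went from 0.933% and 0.947% in spermatogonia to 0.762% and 0.8% in late spermatocytes, 0.405% and 0.414% in round spermatids and 0.16% and 0.173% in elongating spermatids. Up to late spermatocytes the mitochondrial ribosomal protein transcripts thus lost a smaller part of their share than the cytoplasmic ones.

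The X-linked members were the clearest exception to the common course. Rpl10, Rpl36a, Rpl39 and Rps4x together made up 1.26% of member UMIs in WT spermatogonia and 1.24% in KO, and 1.27% and 1.45% in early spermatocytes. In late spermatocytes they dropped to 0.00825% in WT and 0.0523% in KO. They stayed at 0.0285% and 0.12% in round spermatids and at 0.0161% and 0.0867% in elongating spermatids. In Leydig cells, where the X chromosome is active, they made up 4.94% and 5.1%.

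Rpl10 encodes a large subunit protein needed for the final assembly of the subunit. It stood at 519.2 CPM in WT and 543.6 in KO spermatogonia and at 407.1 and 529.9 CPM in early spermatocytes, then at 2.23 and 12.2 CPM in late spermatocytes, 4.55 and 17.9 in round spermatids and 2.18 and 9.66 in elongating spermatids. Its paralog Rpl10l had 74.5 CPM in WT and 88.5 in KO spermatogonia, 117.1 and 76.6 in early spermatocytes, and was highest in late spermatocytes with 336.7 and 356.2 CPM. Round spermatids had 163.9 and 175 CPM of Rpl10l and elongating spermatids 10.4 and 11.5. Rpl10l made up 12.5% (10.4 to 15) of the UMIs of the pair in WT spermatogonia and 14% (13 to 15) in KO, and 99.3% (99.1 to 99.6) in WT late spermatocytes and 96.7% (96.1 to 97.2) in KO. The pair thus passed from mostly Rpl10 to nearly all Rpl10l between early and late spermatocytes in both libraries.

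Rpl39 and Rpl39l behaved differently before meiosis. Rpl39 encodes a very small protein at the exit tunnel of the large subunit. Rpl39l was already the larger part of the pair in spermatogonia, with 77.3% (74.5 to 80) in WT and 80.4% (79.2 to 81.5) in KO. It was also the larger part in WT Sertoli cells (79.8%) and in macrophages (82.1% in WT and 76% in KO). In KO Sertoli cells it was 42.2%, and in Leydig cells 31.8% in WT and 15.5% in KO. Elongating spermatid markers stood at 28460 CPM in WT and 18101 in KO spermatogonia. The part of RNA from later germ cells in these shares was not tested. Rpl39l stood at 522.8 CPM in WT and 522.3 in KO spermatogonia, at 665.5 and 396.4 CPM in early spermatocytes and at 1945 and 1850 CPM in late spermatocytes. Rpl39 was then down to 9 UMIs in WT late spermatocytes, against 26176 of Rpl39l, and to 59 in KO, against 20243. In round spermatids Rpl39l had 996.7 and 989.4 CPM, and in elongating spermatids 279.3 and 170.5 CPM. It was the most abundant paralog in late spermatocytes, round spermatids and elongating spermatids of both libraries.

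Rpl36al, whose protein is identical to that of Rpl36a, did not increase in the same way. Rpl36a stood at 721.1 CPM in WT and 777.1 in KO spermatogonia and fell to 1.11 and 7.13 CPM in late spermatocytes. Rpl36al had 22.2 and 29.7 CPM in spermatogonia, 13 (5.23 to 26.8) and 18.1 (12.4 to 25.4) in early spermatocytes, 18.4 and 24.2 in late spermatocytes and 7.3 and 8.33 in round spermatids. The share of Rpl36al in the pair went from 2.99% (2.04 to 4.21) in WT and 3.69% in KO spermatogonia to 94.3% (90.8 to 96.8) and 77.3% (72.5 to 81.6) in late spermatocytes, while the level of Rpl36al itself was not above that of spermatogonia. From early to late spermatocytes its log2 difference was 0.50 in WT and 0.42 in KO, and the intervals of the levels overlapped. Rpl36al did not exceed 29.7 CPM in any of the 5 named germ cell classes.

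For the small subunit protein of Rps4x, the testis row Rps4l held nearly all UMIs from the start. Rps4l stood at 566.4 CPM in WT and 741 in KO spermatogonia, 531.8 and 546.9 in late spermatocytes, 295.8 and 283.5 in round spermatids and 11.4 and 13.8 in elongating spermatids. Rps4x had 33.7 CPM in WT and 87.8 in KO spermatogonia but 634 and 749.3 CPM in Leydig cells. Rps4l was 94.4% of the pair in WT spermatogonia, 99.9% in WT late spermatocytes and 21% in WT Leydig cells, and 89.4%, 99.1% and 17.6% in KO.

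**Figure D2:**
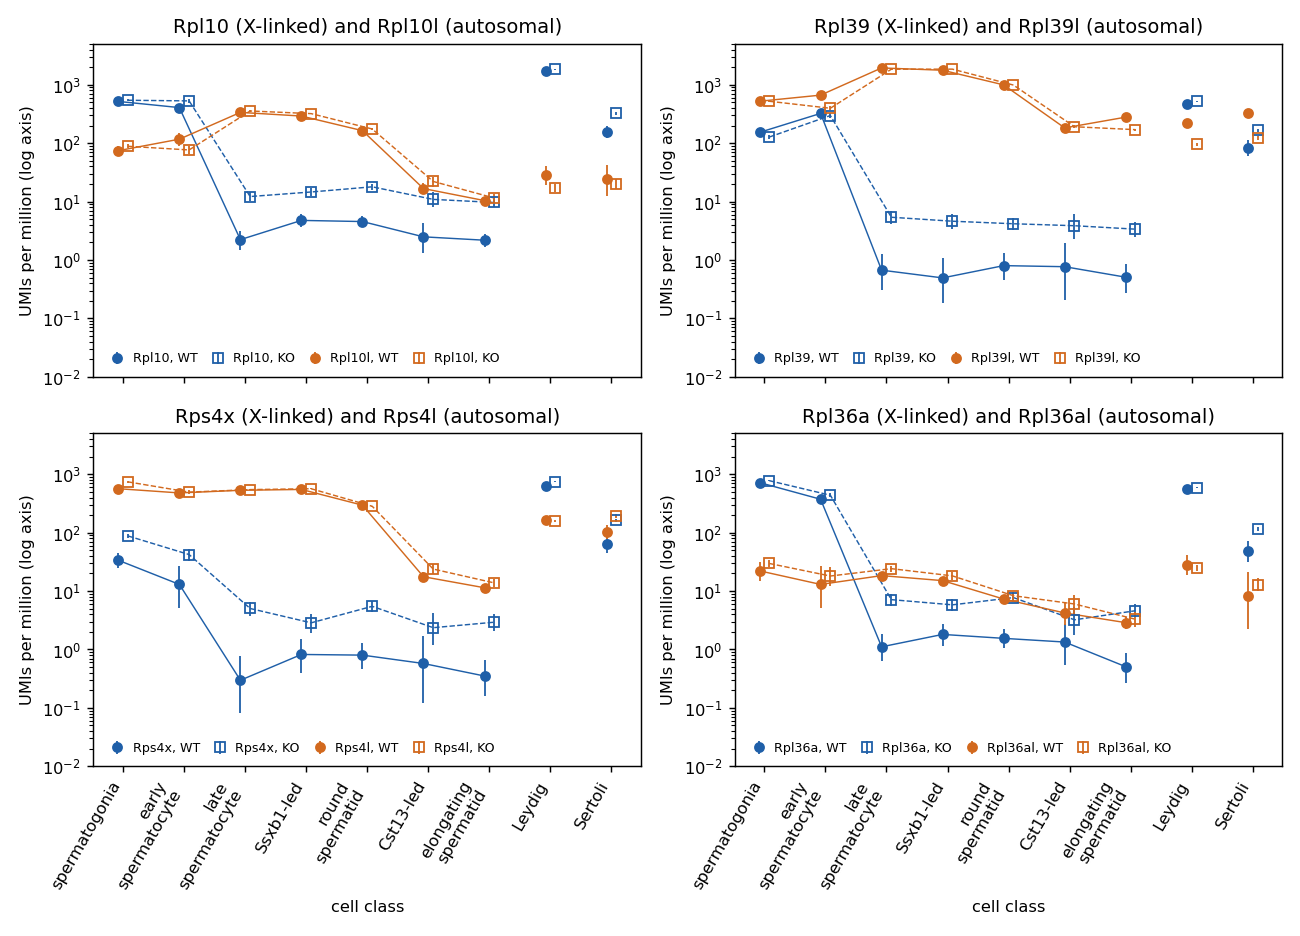
Level in CPM (vertical axis, log scale) of 4 X-linked genes (blue) and their autosomal paralogs (orange) in each cell class, with filled circles and solid lines for WT, open squares and dashed lines for KO, and bars for exact 95% Poisson intervals. Rpl10 drops from 407.1 CPM in WT and 529.9 in KO early spermatocytes to 2.23 and 12.2 CPM in late spermatocytes while Rpl10l reaches 336.7 and 356.2 CPM, and Rpl36al stays between 13 and 24.2 CPM in these classes.

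The genes whose levels ran most like those of the 2 leading paralogs were found by Pearson's r of log2(CPM + 1) over 24 points, the 12 germ cell clusters in each library, among 18766 genes. These points share libraries and neighbouring stages, so r is a description. Nearest to Rpl10l were Vdac2, a mitochondrial channel gene (r = 0.994), Dynlt1f, a dynein light chain gene (0.993), Gkap1, Wfdc15a and Cep72 (each 0.988). Nearest to Rpl39l were Tcp1, a chaperonin subunit gene (0.971), Gm10297 and AC163295.2 (each 0.967), Morc2b (0.965) and Lyar, a nucleolar protein gene (0.964). Rpl10l and Rpl39l had an r of 0.930 with each other, and Rpl10l had 0.938 with Rps4l, 0.194 with its parent Rpl10 and 0.870 with Rpl22l1. Vdac2 stood at 212.7 CPM in WT and 171.1 in KO spermatogonia, 1076 and 934.7 in late spermatocytes and 14.5 and 16.1 in elongating spermatids, which is the rise and fall of Rpl10l on a higher level.

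The X-linked UMIs that were left from late spermatocytes on were few but more frequent in KO. Rpl10 had 30 UMIs in WT and 133 in KO late spermatocytes, 91 and 301 in round spermatids and 56 and 132 in elongating spermatids, which gave log2 ratios of KO over WT of 2.45 (1.87 to 3.07), 1.98 (1.63 to 2.33) and 2.15 (1.69 to 2.62). In round spermatids Rps4x had 16 UMIs in WT and 92 in KO, a log2 ratio of 2.78 (2.00 to 3.64), and Rpl36a 31 and 130, a log2 ratio of 2.32 (1.75 to 2.93). Leydig markers moved the same way, with 233.1 CPM in WT and 401.7 in KO late spermatocytes, 92.5 and 238.7 in round spermatids and 17.5 and 116.2 in elongating spermatids. Sertoli markers stood at 12.2 CPM in WT and 82.6 in KO late spermatocytes and at 7.95 and 42.5 CPM in elongating spermatids. As a percent of its own level in Leydig cells, Rpl10 in late spermatocytes stood at 0.13% in WT and 0.661% in KO, and the summed Leydig markers at 0.505% and 0.688%. In round spermatids Rpl10 stood at 0.266% and 0.974% and the markers at 0.2% and 0.409%, and in elongating spermatids Rpl10 at 0.128% and 0.525% and the markers at 0.0379% and 0.199%. Rpl10 was thus above the markers in both spermatid classes of both libraries. In late spermatocytes it was close to them in KO and below them in WT. Rpl36a, Rpl39 and Rps4x were also above the markers in elongating spermatids of both libraries. In round spermatids they stood at 0.273%, 0.17% and 0.126% in WT and at 1.32%, 0.798% and 0.731% in KO. In late spermatocytes they stood at 0.196%, 0.142% and 0.0469% in WT and at 1.22%, 1.03% and 0.671% in KO. Rpl39 and Rps4x were thus below the markers in WT round spermatids, and Rpl36a and Rpl39 above them in KO late spermatocytes. Without the cells called doublets the log2 ratio of Rpl10 was 2.58 in late spermatocytes, 1.45 in round spermatids and 2.18 in elongating spermatids. The part of RNA from somatic cells in these differences was not tested.

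Of the paralogs with autosomal parents, Rpl22l1 followed the X-linked group and Rps27l did not. Rpl22, a large subunit protein that many cells can do without, went from 1056 CPM in WT and 1130 in KO spermatogonia to 111.3 and 176 CPM in late spermatocytes, while Rpl22l1 went from 219.8 and 255.6 to 458.1 and 468.9 CPM. Rpl22l1 therefore made up 17.2% (15.5 to 19.1) of the pair in WT spermatogonia and 80.4% (79.5 to 81.3) in late spermatocytes, and 18.5% and 72.7% in KO. In elongating spermatids the balance was again on the side of Rpl22, with 18.3% and 26.4% Rpl22l1, since Rpl22l1 was down to 16.7 and 34.5 CPM while Rpl22 stood at 74.6 and 96.1 CPM. The change of partner was thus not confined to X-linked parents.

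Rps27l, a p53-responsive paralog of Rps27, was most abundant early. It had 1063 CPM in WT and 946.9 in KO spermatogonia and 1640 and 1525 CPM in early spermatocytes, then 422 and 431.9 in late spermatocytes, 196.1 and 183.7 in round spermatids and 10.4 and 19.5 in elongating spermatids. Rps27 stood at 1625 and 1296 CPM in spermatogonia and still at 673.8 and 617.3 CPM in elongating spermatids. The share of Rps27l in the pair fell from 39.6% (38 to 41.1) in WT and 42.2% (41.5 to 43) in KO spermatogonia to 23.8% and 24.6% in late spermatocytes and 1.51% (1.34 to 1.71) and 3.07% (2.72 to 3.45) in elongating spermatids. Rpl7l1, which shares only 16.7% of aligned residues with Rpl7 and acts in ribosome assembly, fell from 88.1 and 105.8 CPM in spermatogonia to 0.351 and 0.586 CPM in elongating spermatids. Rpl3l, the paralog of heart and skeletal muscle, stayed at or under 4.21 CPM in all classes. Together the 8 paralogs made up 2.27% of member UMIs in WT and 2.17% in KO spermatogonia, 7.15% and 6.52% in late spermatocytes, 8.75% and 8.69% in the Ssxb1-led cluster and 1.5% and 1.07% in elongating spermatids.

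Because the members as a whole lost share, each core gene was also expressed as a percent of all member UMIs. From spermatogonia to elongating spermatids, 74 of the 77 core genes changed in the same direction in both libraries, 20 upward and 54 downward. The 5 core genes that gained most, by the smaller change of the 2 libraries, were Rps20, Rpl41, Rpl36, Rplp0 and Rps24. Rps20 went from 1.38% to 10.5% of member UMIs in WT and from 1.35% to 10.1% in KO. Rpl41, which encodes the shortest ribosomal protein, went from 2.3% to 9.92% in WT and from 1.7% to 7.23% in KO. Rpl36 went from 1.27% to 4.95% and from 1.07% to 4.25%, Rplp0, the anchor of the ribosomal stalk, from 2.4% to 5.38% and from 2.7% to 6.42%, and Rps24 from 2.43% to 4.31% and from 2.62% to 4.94%.

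The 5 core genes that lost most were Rps27a, Rps2, Rpl14, Rps3 and Rpl4. Rps27a, which is made as a fusion with ubiquitin, went from 2.23% to 0.0563% of member UMIs in WT and from 2.48% to 0.101% in KO. Rpl14 went from 1.9% to 0.0275% and from 2.01% to 0.0695%, Rps3, a small subunit protein that also acts in DNA repair, from 1.58% to 0.0464% and from 1.75% to 0.0892%, Rps2 from 2.39% to 0.305% and from 2.73% to 0.32%, and Rpl4 from 1.57% to 0.0895% and from 1.75% to 0.135%. On the CPM scale, Rps27a went from 2514 to 1188, 45 and 12.4 CPM in WT spermatogonia, late spermatocytes, round spermatids and elongating spermatids, and from 3081 to 1496, 63.9 and 23.9 CPM in KO. Rpl14 went from 2147 to 198, 13.2 and 6.08 CPM in WT and from 2500 to 327.1, 33.2 and 16.5 CPM in KO in the same classes. Within WT elongating spermatids the core genes named here thus ran from 6.08 CPM of Rpl14 to 2312 CPM of Rps20.

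**Figure D3:**
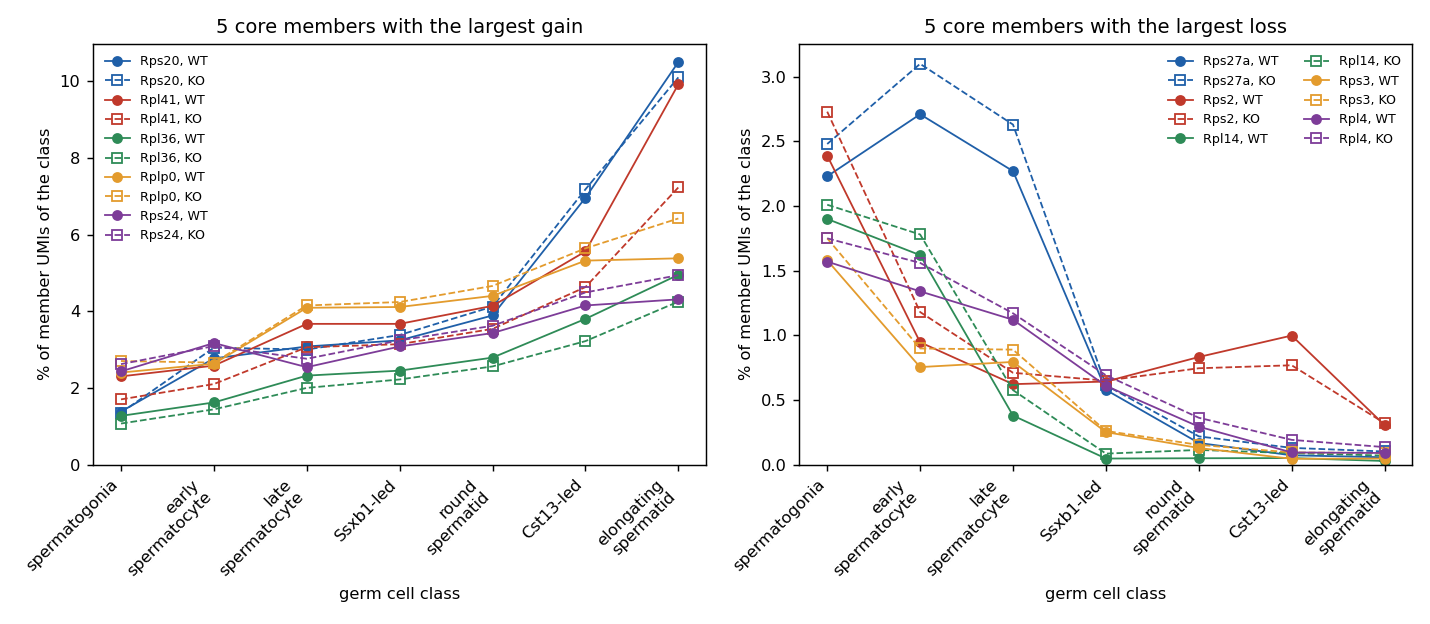
Percent of all member UMIs (vertical axis, linear and starting at 0) contributed by the 5 core genes that gained most (left) and the 5 that lost most (right) between spermatogonia and elongating spermatids, by germ cell class, with filled circles and solid lines for WT and open squares and dashed lines for KO. Rps20 climbs from 1.38% in WT and 1.35% in KO to 10.5% and 10.1%, and Rpl14 drops from 1.9% and 2.01% to 0.0275% and 0.0695%.

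Rps20 was the only core gene with a higher CPM in elongating spermatids than in spermatogonia in both libraries, with 1560 and 2312 CPM in WT and 1673 and 2399 CPM in KO, a log2 change of 0.57 and 0.52. By the smaller change of the 2 libraries, the largest falls on this scale were those of Rpl36a, with -10.48 in WT and -7.40 in KO, Rpl14, with -8.46 and -7.25, and Rps27a, with -7.66 and -7.01. The ratio of large to small subunit UMIs was 1.26 in WT and 1.18 in KO spermatogonia, 1.4 and 1.34 in late spermatocytes, 1.48 and 1.38 in elongating spermatids and 1.36 and 1.33 in Leydig cells. It was lower in KO than in WT in each of these classes. The stalk genes Rplp0, Rplp1 and Rplp2 together went from 7.39% of member UMIs in WT and 8.23% in KO spermatogonia to 8.56% and 9.48% in elongating spermatids.

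Between the genotypes the members differed little within a class and mostly in one direction. In spermatogonia the median log2 ratio of KO over WT was 0.17 over 85 tested members, with 64 above 0, beside a median of 0.03 over all tested genes. It was 0.05 in early spermatocytes (80 members, 51 above 0, all genes 0.08), 0.16 in late spermatocytes (83 members, 70 above 0, all genes 0.03) and 0.18 in round spermatids (83 members, 68 above 0, all genes 0.01). In elongating spermatids it was 0.18 (79 members, 60 above 0, all genes 0.15) and in Leydig cells 0.09 (85 members, 62 above 0, all genes -0.05). In Sertoli cells it was 0.63 (83 members, 69 above 0), but there all tested genes had a median of 0.83. Compared with all genes the members were thus shifted upward in KO spermatogonia, late spermatocytes, round spermatids and Leydig cells, and were not in early spermatocytes or in Sertoli cells.

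Outside Sertoli cells, few members went past a 1.5-fold difference. In spermatogonia 2 members were past it higher in KO and 1 lower, beside 8.22% and 11.2% of all tested genes. In early spermatocytes none was higher and 4 were lower, beside 9.12% and 10.1%. In late spermatocytes 4 were higher and 1 lower, beside 7.77% and 5.41%, and in round spermatids 5 were higher and 1 lower, beside 12% and 5.75%. In elongating spermatids 14 were higher and 2 lower, beside 20.5% and 5.87%. In Leydig cells 2 were higher and 3 lower, beside 12.1% and 18.1%, and in Sertoli cells 45 were higher and 4 lower, beside 59.4% and 18.4%. With size factors by the median of ratios the Sertoli counts turned to 3 higher and 18 lower and the Sertoli median to -0.20. The share of all genes past the difference was not calculated with these size factors. Without these size factors, in none of the 7 classes was the percent of members past the difference above that of all genes, so the upward shift consisted of many small differences.

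In spermatogonia the 2 members past it higher were Rps4x, with 33.7 CPM in WT and 87.8 in KO and a log2 ratio of 1.38 (0.96 to 1.84), and Rpl5. In Leydig cells they were Rpl3, with a ratio of 0.72 (0.54 to 0.91), and Rpl13a, whose interval of -0.08 to 2.17 includes 0. Rpl5 and Rpl14 came back in several classes, and Rpl5, which with Rpl11 carries the 5S ribosomal RNA, had 419.6 CPM in WT and 669.3 in KO spermatogonia, a log2 ratio of 0.67 (0.55 to 0.80), 2.18 and 5.56 CPM in elongating spermatids, a ratio of 1.35 (0.83 to 1.87), and 40.7 and 144.6 CPM in Sertoli cells, a ratio of 1.83 (1.19 to 2.55). Rpl14 had 198 CPM in WT and 327.1 in KO late spermatocytes, a log2 ratio of 0.72 (0.65 to 0.80), and ratios of 1.33 (1.12 to 1.55) in round and 1.44 (1.14 to 1.74) in elongating spermatids. Rpl10a had 3.85 and 11.6 CPM in round spermatids, a log2 ratio of 1.59 (1.20 to 1.99), and 72.5 and 111.3 CPM in late spermatocytes, a ratio of 0.62 (0.50 to 0.74). Rpl22 in late spermatocytes had a log2 ratio of 0.66 (0.56 to 0.76). Rps3a1 had 21.7 and 50.1 CPM in elongating spermatids, a log2 ratio of 1.20 (1.04 to 1.37), and Rps21 16.3 and 33.8 CPM, a ratio of 1.05 (0.86 to 1.25). Most of these genes are much more abundant in spermatogonia and somatic cells than in spermatids, and the Leydig markers given above were also higher in the KO spermatids. Spermatogonia markers stood at 516.8 CPM in WT and 532.1 in KO round spermatids and at 50.8 and 72.9 CPM in elongating spermatids, and macrophage markers at 44.8 and 32 CPM in elongating spermatids. The part of RNA from these cells was not tested.

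In all, 34 members had a ratio above 0 in each of the 7 classes, among them Rpl5 with 0.43 to 1.83, Rpl3 with 0.10 to 1.20, Rps3 with 0.13 to 1.54, Rps27a with 0.23 to 1.15 and Rpl13 with 0.02 to 0.55. Only 3 members were below 0 in each, Rpl29, Rpl37a and Rpl41. Rpl41 lay between -0.35 and -0.10 and Rpl37a between -0.16 and -0.02. Of all tested genes, 52.5% were above 0 in spermatogonia, 58% in early and 53.9% in late spermatocytes, and 51.8% in round spermatids. The percent was 63.7% in elongating spermatids, 46.1% in Leydig cells and 73.7% in Sertoli cells. How many of all genes kept the same sign in each of the 7 classes was not counted. The counts of 34 and 3 members thus have no share of all genes to be set beside.

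**Figure D4:**
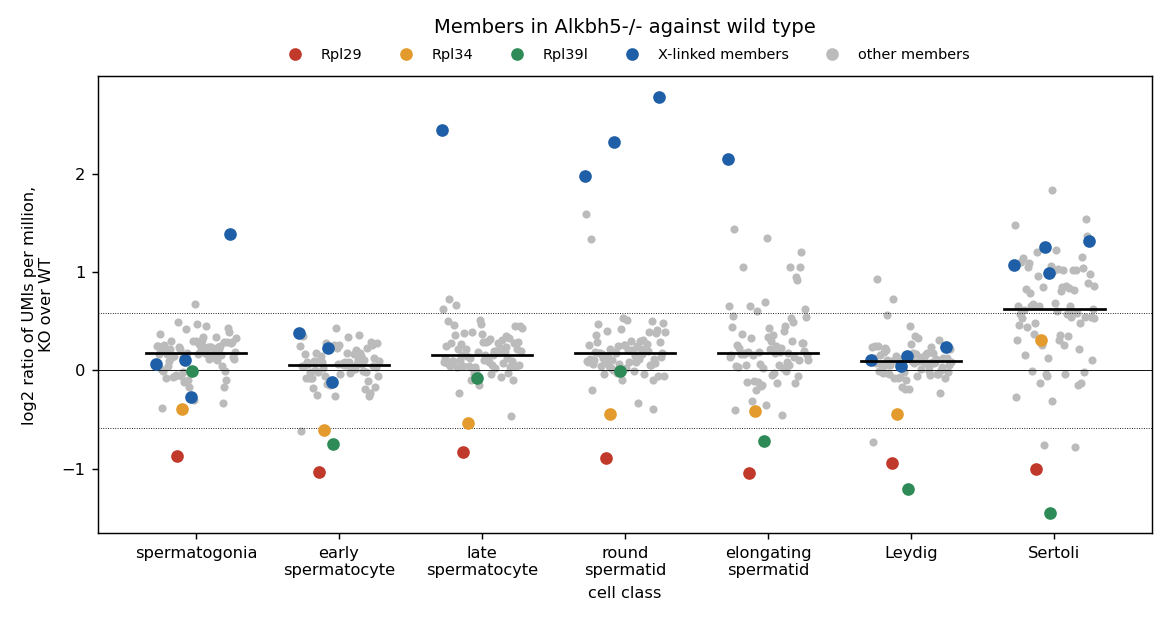
Log2 ratio of KO over WT CPM (vertical axis) by cell class, with 1 point for each member that had at least 100 UMIs in the class over both libraries, a black bar for the median of these members and dotted lines at a 1.5-fold difference. Most points lie slightly above 0 outside Sertoli cells, and Rpl29 lies between -1.04 and -0.82 in all 7 classes.

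Rpl29 was the member that differed most evenly between the genotypes. It encodes a large subunit protein that mice can lack at the cost of slow growth. Rpl29 had 630.2 CPM in WT and 346.2 in KO spermatogonia, a log2 ratio of -0.86 (-0.98 to -0.75), and 394.1 and 193.3 CPM in early spermatocytes, a ratio of -1.03. In late spermatocytes it had 437.1 and 246.8 CPM (log2 -0.82), in round spermatids 187.9 and 101.2 (-0.89) and in elongating spermatids 225 and 109.5 (-1.04). Leydig cells had 354.6 and 184.4 CPM (-0.94) and Sertoli cells 193.3 and 96.9 CPM (interval -1.32 to -0.66), so the KO level was close to that of WT divided by 2 in germ cells and somatic cells alike. Among the 15 clusters with at least 20 cells in each library the ratio was below 0 in all 15, from -1.03 to -0.53 with a median of -0.92, and Rpl29 had the lowest ratio of all members in 10 of them.

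Rpl34, another large subunit gene, was lower in KO by less and in fewer classes. Its log2 ratio was -0.39 (-0.45 to -0.33) in spermatogonia, -0.60 in early and -0.54 in late spermatocytes, -0.44 in round and -0.41 in elongating spermatids and -0.44 in Leydig cells. In Sertoli cells it was 0.31, and over clusters it was below 0 in 13 of 15. In spermatogonia this was 1994 CPM in WT and 1521 in KO, and in late spermatocytes 1047 and 720.6 CPM.

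Both genes have rows of near-identical copies elsewhere in the genome that the symbol rule leaves out, and in both a copy was higher in KO. Gm8210, of whose 31-base words 79.5% occur in Rpl29, was counted 10 times in WT and 335 times in KO, and Rpl34-ps1, with 80.9% of its words in Rpl34, had 110 and 1540. Whether reads of the 2 genes were placed on the copies in KO, or on neither row, was not tested. With the 13 copy rows of Rpl29 added, its log2 ratio was -0.83 in spermatogonia, -0.78 in late spermatocytes, -0.82 in round and -0.99 in elongating spermatids and -0.90 in Leydig cells. With the 3 copy rows of Rpl34 added, its ratio was -0.35, -0.50, -0.40, -0.38 and -0.39 in the same order. Over all members, 274 copy rows held UMIs equal in number to 1.95% of the member UMIs in WT and 1.58% in KO. Of the UMIs of a gene and its copies together, the copies held 82.8% for Rpl24, 56.3% for Rpl13a and 18.6% for Rpl23a, and how reads were placed between them was not tested.

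The testis paralogs Rpl39l and Rpl10l were lower in KO in early spermatocytes and in Leydig cells. In late spermatocytes they differed by less than 1.5-fold between the libraries. In early spermatocytes Rpl39l had a log2 ratio of -0.75 (-0.93 to -0.56) and Rpl10l of -0.61 (-1.05 to -0.16). In Leydig cells Rpl39l had 219.8 CPM in WT and 95.7 CPM in KO, a log2 difference of -1.20 (-1.41 to -0.98), and Rpl10l 28.3 and 17.1 CPM, a ratio of -0.73 (-1.30 to -0.11) that was 0.10 at a finer clustering. Rpl39l in Sertoli cells had 329.7 and 121.2 CPM, a ratio of -1.44 (-1.70 to -1.18). Elongating spermatid markers were also higher in the WT cells of these classes, at 25312 against 7502 CPM in early spermatocytes and at 15172 against 11465 CPM in Leydig cells. Without the cells called doublets the ratio of Rpl39l was -0.72 in early spermatocytes, -1.75 in Leydig cells and -1.91 in Sertoli cells, and that of Rpl10l was -0.54 in early spermatocytes and -1.54 in Leydig cells. The part of free RNA from later germ cells in these values was not tested.

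In Sertoli cells some of the most abundant spermatid members were also lower in KO. Rps20 had 1376 CPM in WT and 805 in KO, a log2 ratio of -0.77 (-0.89 to -0.65), and Rpl36 818.1 and 482.9 CPM, a ratio of -0.76 (-0.91 to -0.60). Both are among the 5 core genes that gained most in elongating spermatids, and the WT cells of this class carried the 152640 CPM of elongating spermatid markers given above. The part of these markers' cells in the Sertoli values was not tested.

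Of the related gene lists, ribosome biogenesis genes had medians at or above those of the members in each class but round spermatids, while the other lists did not follow the members in every class. Ribosome biogenesis genes had median log2 ratios of 0.23 in spermatogonia, 0.17 in early and 0.24 in late spermatocytes, 0.16 in round and 0.53 in elongating spermatids and 0.09 in Leydig cells. In late spermatocytes 11 of 53 tested biogenesis genes (20.8%) were past 1.5-fold higher in KO, beside 7.77% of all genes, and none was lower. In elongating spermatids 6 of 17 (35.3%) were higher, beside 20.5%. Ncl, which encodes nucleolin, had 22.1 CPM in WT and 54.8 in KO late spermatocytes, a log2 ratio of 1.31 (1.11 to 1.51), 8.1 and 17.7 CPM in round spermatids and 2.38 and 6.95 CPM in elongating spermatids. Ddx10, an RNA helicase of the nucleolus, had 8.84 and 23.3 CPM in late spermatocytes, a ratio of 1.40 (1.08 to 1.72), and Rrp9, which acts in cutting pre-ribosomal RNA, 4.76 and 12.2 CPM, a ratio of 1.36 (0.92 to 1.82). In round spermatids Pes1, which matures the large subunit, had 2.95 and 21.9 CPM, a log2 ratio of 2.89 (2.49 to 3.31). Leydig markers were also higher in KO in late spermatocytes, round spermatids and elongating spermatids, as given above. The part of RNA from somatic cells or spermatogonia in the values of the biogenesis genes was not tested.

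Genes of the mitochondrial ribosome had medians of 0.05 in spermatogonia, -0.01 in early and 0.17 in late spermatocytes, 0.09 in round and 0.14 in elongating spermatids and -0.16 in Leydig cells. In this list Mrpl33, a protein of the large mitochondrial subunit, had the highest ratio, with 13.3 CPM in WT and 55.2 in KO round spermatids, a log2 ratio of 2.05 (1.86 to 2.26), and 1.83 and 14 CPM in elongating spermatids, a ratio of 2.93 (2.47 to 3.43). In round spermatids 4 of 70 tested mitochondrial ribosomal genes (5.71%) were past 1.5-fold higher and 1 (1.43%) lower, both below the 12% and 5.75% of all genes. Translation elongation factor genes had medians of 0.30 over 8 genes in spermatogonia and between -0.06 and 0.22 in the other germ cell classes and Leydig cells, with 1 gene past 1.5-fold higher in late and 1 in elongating spermatids.

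The elongating spermatids were then divided into their 4 clusters, a comparison chosen after the values of the class had been seen. The clusters were led by Prss58, by Tnp2, by Klk1b8 with Prm1, and by Spem1 with Oaz3, and are given in that order, in which the transition protein gene Tnp2 is known to be expressed before Oaz3. More of the KO cells lay in the first 2 clusters, with 37.2% of the class in the Prss58 cluster, 31% in the Tnp2 cluster, 19.2% in the Klk1b8 cluster and 12.6% in the Spem1 cluster, against 22.3%, 26.3%, 27.5% and 23.9% in WT. In the Prss58 cluster 7 of 73 tested members were past 1.5-fold higher in KO and 2 lower, beside 12.9% and 6.66% of all genes. In the Tnp2 cluster 7 of 70 were higher and 5 lower, beside 11.9% and 8.22%. In the Klk1b8 cluster 3 of 65 were higher and 12 lower, beside 12.4% and 8.28%, and in the Spem1 cluster 11 of 61 were higher and 9 lower, beside 21.2% and 5.95%. The members lower in KO were thus more numerous in the later clusters, where their share was above that of all genes.

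Rpl37a showed the largest difference in the Klk1b8 cluster. In the order of the 4 clusters from Prss58 to Spem1 it had 351.8, 419, 291.6 and 63.3 CPM in WT and 381, 288.6, 62.1 and 43 CPM in KO. The log2 ratio was 0.11 in the first cluster, -0.54 in the second and -2.23 (-2.49 to -1.99) in the third. In WT the level was thus kept until the third cluster and was low in the fourth, while in KO it was already low in the third.

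Rps27 followed the same course. It had 814.6, 930, 668.4 and 137.4 CPM in WT and 861.8, 691.3, 164.9 and 78.3 CPM in KO, with log2 ratios of 0.08, -0.43, -2.02 (-2.17 to -1.87) and -0.81. Rps26 stood at 174.1 CPM in WT and 79.4 in KO in the Klk1b8 cluster, a log2 ratio of -1.13 (-1.37 to -0.90). In the Spem1 cluster the members that were lower included Rps28, with 182.6 and 82.1 CPM (log2 -1.15), Rpl37, with 300.3 and 139.7 CPM (-1.10), and Rps15a, with 205.3 and 108.2 CPM (-0.92), all 3 of which differed by less than 1.5-fold in the 3 earlier clusters.

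The testis paralog Rpl39l was kept through all 4 clusters in WT but not in KO. Its level went in the 4 WT clusters from 212.5 to 263.2, 308.4 and 356.6 CPM, and in KO it went from 210 to 174.3, 94.6 and 114.3 CPM. The log2 ratios were -0.02 (-0.13 to 0.09), -0.59 (-0.72 to -0.47), -1.70 (-1.91 to -1.50) and -1.64 (-1.89 to -1.40). The class as a whole had a log2 ratio of -0.71 (-0.78 to -0.64), and in the Prss58 cluster the interval of the ratio included 0.

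Rps7 went the opposite way. It had 663.1, 754.2, 406.7 and 50.8 CPM in WT and 833.8, 850.3, 822.9 and 169.6 CPM in KO, with log2 ratios of 0.33, 0.17, 1.02 (0.93 to 1.10) and 1.74 (1.48 to 2.00). Its fall in the last cluster was present in both libraries, and in the last 2 clusters KO cells had more of it than WT cells. Of the other members higher in the Spem1 cluster, Rps27a had 15.8 and 39.9 CPM (log2 1.33) and Rpl4 18.7 and 42.2 CPM (1.17). Rps20, one of the most abundant members there, had 1778 CPM in WT and 1969 in KO in the Prss58 cluster and 3012 and 3722 in the Spem1 cluster.

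**Figure D5:**
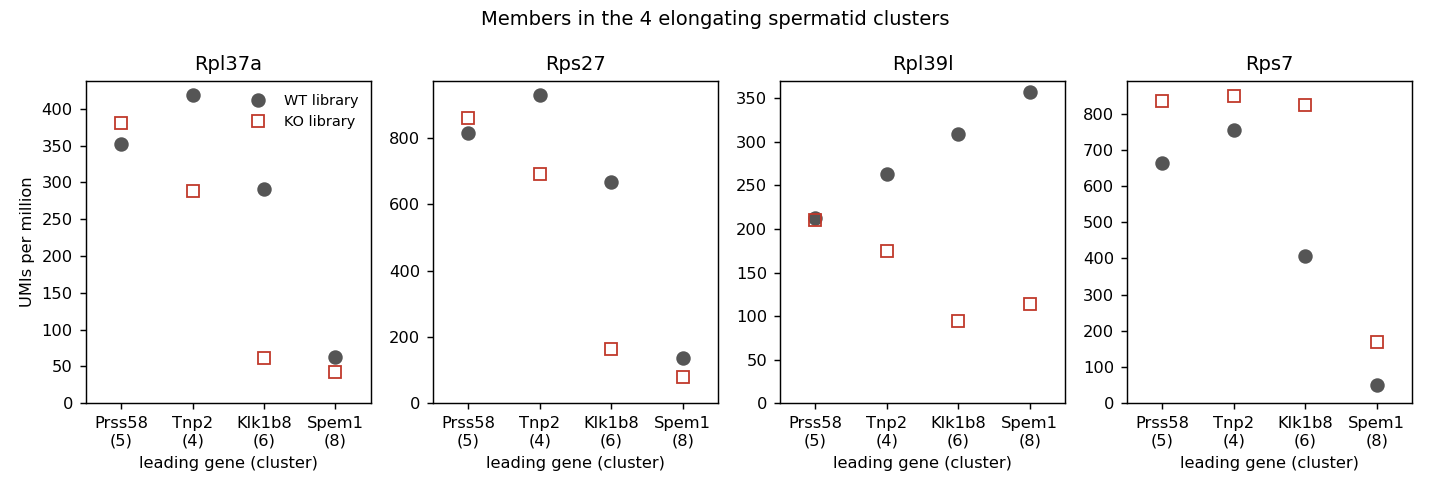
Level in CPM (vertical axes, each panel with its own scale from 0) of Rpl37a, Rps27, Rpl39l and Rps7 in the 4 elongating spermatid clusters of WT (filled circles) and KO (open squares), in the order from Prss58 to Spem1 and without intervals. Rpl37a, Rps27 and Rpl39l are close in both libraries in the Prss58 cluster and lower in KO in the Klk1b8 cluster, while Rps7 is higher in KO there, at 822.9 against 406.7 CPM.

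Within these clusters the genes that mark elongation also differed between the libraries. Unlike the members, these genes could be used in making the clusters, so the sizes of their differences cannot be set against those of the members. In the Klk1b8 cluster the log2 ratio of KO over WT was -0.27 for Tnp1, -0.31 for Tnp2, -0.15 for Prm1 and 0.49 for Prss58. In the Spem1 cluster it was -0.63 for Prm1, -0.54 for Oaz3, -0.11 for Spem1, 0.58 for Klk1b8 and 0.75 for Prss58. Whether KO cells sit at an earlier point within a cluster was not tested. A finer clustering left the Klk1b8 cluster nearly as it was, with 667 WT and 252 KO cells, and divided the Tnp2 cluster. One of its parts (338 and 201 cells) had log2 ratios of -1.02 for Rpl37a, -0.77 for Rps27 and -0.82 for Rpl39l, and the other (301 and 207 cells) of -0.17, -0.16 and -0.39.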

How the data were processed

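The study profiled 1 testis library of each genotype. Per the labels and the methods, the authors extracted barcodes and UMIs, trimmed reads with fastp, aligned them with STAR 2.5.3a and counted genes with featureCounts 1.6.2. The deposited values are raw UMI counts per gene and cell. The methods name the human build GRCh38, while the symbols are those of mouse, so coordinates were taken by symbol from GENCODE vM21 on GRCm38 and sequences from that genome. The members and gene lists were chosen with earlier results of these data known.

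Cells with over 500 genes, which was every cell, were integrated in Seurat 5.3.0 (2000 variable features per library, 20 anchor dimensions, 30 principal components, resolution 0.3), leaving symbols starting with Rpl, Rps or Mrp out of the variable features. A cluster was named from at least 3 listed markers that were detected in 10% or more of its cells and lay at least 2-fold above the other cells. Summed UMIs per class gave CPM, shares with exact binomial intervals and log2 ratios with exact conditional intervals, at 95%, in Python 3.11.15 with scipy 1.17.1. Ratios were compared where both sums together held at least 100 UMIs, by a fixed size of 1.5-fold between genotypes and 2-fold between classes. Scrublet in scanpy 1.11.5 called 243 WT and 348 KO cells doublets. They were kept, and their removal was an alternative. Copy rows were genes outside the set with at least 50% of their 31-base words in a member. The calculation of ratios was tested on simulated data.

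Genes were named by rule: paralogs and parents, X-linked members, the 5 largest ratios per class and direction, the 5 largest gains and losses in composition, and up to 4 context genes per class. Others were chosen after their values were seen, among them the copies, members with one sign in all classes, and those of the 4 elongating clusters. Results for some genes are not reported here.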

Additional observations from a re-analysis of the deposited data

Results flagged for a closer look

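Rows outside the 92 members showed a signal in KO that was nearly missing in WT. Gm8210, a copy of Rpl29, had 335 UMIs in KO and 10 in WT. It was spread over the classes, with 4 UMIs in WT and 69 in KO late spermatocytes, 1 and 43 in round spermatids, 2 and 50 in elongating spermatids, 1 and 53 in Leydig cells and 0 and 46 in spermatogonia. Rpl34-ps1, a copy of Rpl34, had 1540 UMIs in KO and 110 in WT, with 5 and 309 in spermatogonia, 36 and 227 in late spermatocytes, 26 and 251 in round spermatids and 4 and 356 in Leydig cells. These were the 2 copy rows that were more than 2-fold higher in KO in at least 5 of 7 classes, and their parent genes Rpl29 and Rpl34 were lower in KO in 7 and 6 of the 7 classes. Whether reads of the parent genes were placed on the copies in KO was not tested.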

How the results depend on the processing

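The libraries have no replicates, so all intervals cover counting error only, and genotype, animal, dissociation and library cannot be told apart. No paired analysis was possible because the labels give no replicate numbers and each genotype has 1 library. Stages reached by few WT cells are the least precise, and a class name depends on the clustering used here.

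The 8 results on steps between classes and the 4 on composition did not move under either of the 2 alternatives run on each. Of the medians of KO over WT, 57 values stayed within the limits set. With size factors by the median of ratios the Sertoli median was -0.20, the opposite direction, and the elongating spermatid median 0.03. With these size factors 3 members were higher and 18 lower in Sertoli cells, 9 were higher in elongating spermatids and 7 were higher in the Spem1 cluster. For single members, 681 values did not move and 38 did, and Rpl10l in Leydig cells was 0.10 in place of -0.73 at resolution 0.8, where 1 member was lower in Leydig cells.

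With a fold of 2 in place of 1.5, the members higher and lower were 1 and 0 in spermatogonia, 1 and 0 in late spermatocytes, 7 and 1 in elongating spermatids, 0 and 1 in Leydig cells, and 22 and 1 in Sertoli cells, with 1 lower in early spermatocytes and 0 lower in round spermatids. In the Prss58 cluster 3 were higher, in the Tnp2 cluster 2 were higher and 1 lower, in the Klk1b8 cluster 1 and 5, and in the Spem1 cluster 4 and 3. With at least 10 UMIs in place of 100, 2 were lower in spermatogonia, 1 was higher in early spermatocytes, 8 were higher and 3 lower in late spermatocytes, and 6 were lower in Leydig cells. By that limit 14 were higher in the Prss58 cluster, 14 higher and 8 lower in the Tnp2 cluster, 9 higher in the Klk1b8 cluster and 24 higher in the Spem1 cluster. With equal weight per cluster 1 was higher and 2 lower in late spermatocytes and 4 were lower in elongating spermatids. The share of all genes past the difference was not calculated under any alternative, so the counts under them cannot be set beside it.

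The share of the members moved most where called doublets were removed, to 12.3% in WT and 13.4% in KO spermatogonia and 7.04% and 7.31% in Leydig cells. With the members kept among the variable features it was 10.8% and 12.3% in spermatogonia. At resolution 0.8 it was 11.1% and 12.4% in spermatogonia, 7.08% and 7.23% in Leydig cells and 2.18% and 2.34% in elongating spermatids. With equal weight per cluster it was 5.4% and 5.72% in late spermatocytes and 2.31% in KO elongating spermatids, and with over 1000 genes per cell 2.22% in WT elongating spermatids. Without called doublets the share of Rpl10l in its pair was 9.12% in WT and 12.3% in KO spermatogonia and 99.6% and 97.6% in late spermatocytes, and that of Rpl39l 70% and 78% in spermatogonia. The causes of these moves were not tested.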

Other observations

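In the KO endothelial-like cells most UMIs of the pairs with X-linked parents were those of the parents. In the 24 endothelial-like cells of KO, Rpl10 had 305 UMIs against 3 of Rpl10l, Rpl39 had 129 against 8 of Rpl39l, and Rpl36a had 174 against 1 of Rpl36al. In macrophage-like cells Rpl39l made up 82.1% of its pair in WT and 76% in KO and Rpl10l 23.8% and 18.7%. Rpl36al made up 5.77% and 5.34% of its pair there and Rps4l 32.8% and 46.2%. Elongating spermatid markers in macrophage-like cells stood at 81200 and 58823 CPM, against 6280 CPM in the KO endothelial-like cells. The part of germ cell RNA in the macrophage values was not tested. The endothelial-like cells also had the highest share of members of all KO clusters, 13.2% (13 to 13.4) of UMIs.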
